A study of Homo sapiens with 6 samples.

Results

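The interferon ligands and receptors are 9 genes, chosen by gene symbol from the count files of SW780 cells with and without RC48. They are the ligand genes IFNB1, IFNE and IFNL1 and the receptor genes IFNAR1, IFNAR2, IFNGR1, IFNGR2, IFNLR1 and IL10RB. Of these 9, 7 had a row among the 16390 genes listed in the files, and 6, all receptors, had enough counts to be tested. SW780 is an established human bladder cancer line, treated in the study as luminal. RC48 (disitamab vedotin) is an antibody that binds ERBB2 and carries a microtubule poison. RNA was sequenced from 3 libraries of SW780 cells exposed to RC48 at 25 µg/ml and from 3 Control libraries of SW780 without RC48. All 6 libraries come from 1 cell line, the exposure time of this experiment is not named in the text, and the labels do not tell whether replicates were separate cultures, so p-values measure the spread between libraries, which may be technical.

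Interferons are secreted proteins of antiviral and immune defence, many of which cells release on sensing foreign or misplaced nucleic acid, while interferon gamma comes mainly from activated T and NK cells. Type I interferons (IFNA genes, IFNB1, IFNE, IFNK, IFNW1) act through IFNAR1 and IFNAR2, the type II interferon (IFNG) acts through IFNGR1 and IFNGR2, and type III interferons (IFNL genes) act through IFNLR1 and IL10RB. Types I and III activate a complex with STAT2 and IRF9 that binds the interferon-stimulated response element (ISRE), and type II acts mainly through the gamma-activated site (GAS). The comparison asks whether an interferon transcript accompanied the response to RC48.

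Libraries held 16453233 to 17988030 estimated counts. All 6 luminal markers were listed, with summed levels of 761 to 776 CPM (counts scaled to library size with TMM factors) in Control and 696 to 867 CPM in RC48. Within that sum KRT20 fell (1.98 to 0.667 CPM, log2 fold change -1.55, adjusted p = 0.0489 by edgeR), and FOXA1 was lower in every RC48 library without passing the test (-0.44). Of 5 basal markers, 4 were listed, summing to 333 to 352 CPM in Control and 310 to 343 CPM in RC48. Most of that was CD44 (330 CPM in Control, 311 CPM in RC48). Of 6 fibroblast markers, 5 were listed, summing to 444 to 475 CPM in Control and 444 to 558 CPM in RC48. Most of this sum was COL3A1 and LUM, while DCN and PDGFRB had at most 2 counts in any library and COL1A2 had no row. LUM was lower in every RC48 library (168 to 92.2 CPM), and COL3A1 (280.5 to 412 CPM) and COL1A1 (9.80 to 16.3 CPM) were higher in every one. Of these 3, 0 were called by edgeR, against 2.21% of all genes. All 3 had an unadjusted p under 0.05 in edgeR and passed in DESeq2, against 19.1% and 5.7% of all genes. The RC48 libraries differed in a GC trend: the log2 ratio to Control rose with the GC content of the transcript in RC48 replicate 1 (Spearman rho = 0.741 across 13000 genes) and replicate 3 (0.577), against -0.0176 in replicate 2. Values with a correction for this trend are therefore given beside each interferon receptor.

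The stretches that follow lie upstream of members' start sites and are shown because they hold letters to which regulators of this pathway are known to bind. They were read from the RefSeq promoter table (GRCh38.p14), which held 8 of the 9 genes, over the 250 bases before each start and on both strands. Capitals mark the match: an NF-kB site for IFNB1 and IFNGR2, the ISRE letters for IFNL1, and the GAS letters for IFNLR1. The ISRE was searched as GAAA, any 2 bases, GAAA, and IFNL1 holds 2 overlapping matches on the opposite strand. The GAS was searched as TTCNNNGAA and NF-kB by its usual consensus. Of the matches found in members, only a second motif of IFNB1 (GAS) is not printed.
IFNB1, chr9:21077969-21078038, minus strand: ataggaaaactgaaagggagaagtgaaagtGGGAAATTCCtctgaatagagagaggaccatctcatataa
IFNL1, chr19:39296163-39296238, plus strand: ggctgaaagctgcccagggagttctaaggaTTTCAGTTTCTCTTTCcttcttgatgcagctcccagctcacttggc
IFNLR1, chr1:24187489-24187539, minus strand: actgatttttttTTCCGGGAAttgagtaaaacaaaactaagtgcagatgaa
IFNGR2, chr21:33403197-33403412, plus strand: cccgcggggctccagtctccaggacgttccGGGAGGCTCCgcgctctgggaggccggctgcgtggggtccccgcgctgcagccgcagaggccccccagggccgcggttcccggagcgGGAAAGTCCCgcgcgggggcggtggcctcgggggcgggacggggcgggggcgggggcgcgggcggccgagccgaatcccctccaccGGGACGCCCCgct

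Of the 8 members in that table, 1 held the ISRE letters (IFNL1), 2 held the GAS letters (IFNB1 and IFNLR1) and 2 held an NF-kB site (IFNB1 and IFNGR2). Over the promoters of 27305 genes, the same letters stood in 3.71% (ISRE), 8.09% (GAS) and 11.8% (NF-kB). In IFNB1 the NF-kB site began 66 bases before the start, within the enhancer through which NF-kB and IRF proteins are known to switch this gene on. A match describes these letters only, and binding was not measured.

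No interferon ligand was measured above 2 counts in any library. IFNB1, the fibroblast and epithelial interferon (NCBI gene 3456, chr9:21077104-21077942), had no row. IFNE, an interferon made by epithelium of the reproductive tract (gene 338376, chr9:21480839-21482313), also had none. By the rule both count as not detected. The listing itself depended on the RC48 libraries: of the 16390 listed genes, 0 had 0 counts in all 3 RC48 libraries, while 644 had 0 counts in all 3 Control libraries. An absent row therefore gives no count for Control. In an RC48 library, a count of 0 allows up to 0.167 to 0.174 CPM, a limit that covers counting error only.

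IFNL1, the type III ligand also called IL-29 (gene 282618, chr19:39296407-39298673), had 1, 0 and 1 counts in Control replicates 1, 2 and 3 and 1, 0 and 1 counts in RC48 replicates 1, 2 and 3. The groups coincided, and the ratio of summed counts per library size was 0.950, with an exact 95% interval of 0.0689 to 13.1. The 22 human interferon ligand genes were all looked up, and 18 had no row: 13 IFNA genes, IFNB1, IFNE, IFNK, IFNG and IFNL4. The other 3 listed ligands were as sparse as IFNL1. IFNW1 had 1 count in each group, IFNL2 had 1 count in Control and 2 in RC48, and IFNL3 had 1 in Control and 3 in RC48. IFNL2 and IFNL3 are near-identical, so their counts could be shared between them. Over the 4 listed ligands, 5 counts fell in the Control libraries together and 8 counts in the RC48 libraries together. Listed genes all had counts in RC48, so this sum leans toward RC48, and Control counts of the 18 unlisted ligands are unknown. No difference was detected in the 4 listed ligands, with wide intervals on so few counts (for IFNL3, 0.229 to 150). At the same depth the chemokine gene CXCL10 went from 2, 1 and 1 counts in Control to 28, 50 and 37 in RC48. A rise of that size was therefore within reach, while smaller ones could be missed.

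The IFNA genes, IFNB1 and IFNE sit side by side on chromosome 9, and genes of other kinds beside them also had no row. From IFNB1 to DMRTA1 (chr9:21077104-22455740, 1379 kb) RefSeq places 21 protein-coding genes, of which 19 had no row. In the whole reference 81.0% of protein-coding genes had a row. The unlisted 19 were IFNB1, IFNE, the 13 IFNA genes, MTAP (an enzyme of methionine salvage that most tissues express), CDKN2A and CDKN2B (inhibitors of the cell cycle) and DMRTA1. The other 2 genes barely had counts. IFNW1 reached 1 count, and KLHL9, an adaptor of a ubiquitin ligase, had 0 counts in 5 libraries and 1 count in RC48 replicate 1. Just before IFNB1 the picture differed. HACD4, a fatty acid dehydratase, had 135, 111 and 117 counts in Control replicates 1, 2 and 3. FOCAD, which codes for focadhesin, had 515, 471 and 501 counts in the same libraries. Their log2 fold changes were -0.33 ± 0.19 (SE, adjusted p = 0.318) for HACD4 and -0.027 ± 0.12 (adjusted p = 0.891) for FOCAD by the edgeR quasi-likelihood test, adjusted after Benjamini and Hochberg over all genes tested. The DNA of this region was not measured in these files.

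**Figure D1:**
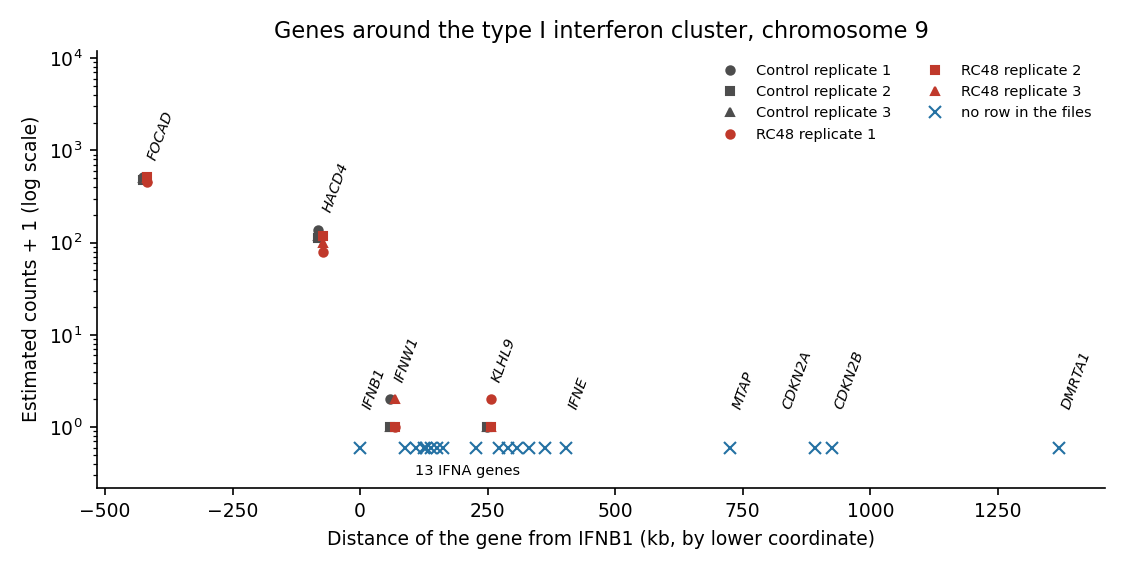
Estimated counts plus 1 (log axis) in each library for the protein-coding genes around IFNB1, by distance in kb from IFNB1, with crosses below 1 for genes that have no row. FOCAD and HACD4, before IFNB1, have counts in every library, whereas from IFNB1 to DMRTA1 only IFNW1 and KLHL9 are listed, each with at most 1 count.

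All 6 receptor genes were present in both groups, so the subunits of each receptor type were transcribed in SW780. Levels between genes are compared in TPM, which accounts for gene length. In Control, IFNGR2 was highest at 65.1 ± 0.929 TPM, followed by IL10RB at 53.8 ± 3.17 and IFNGR1 at 42.3 ± 1.27 (SD, n = 3). IFNAR2 followed at 31.1 ± 3.57 TPM, IFNAR1 at 26.5 ± 0.351 and IFNLR1 at 8.24 ± 0.940 (SD, n = 3). No neighbours in this order overlapped in Control. IFNGR2 stood above 83.9% of listed genes in Control TPM and IFNLR1 above 43.9%, against 15.4% for the ligand IFNL1.

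In RC48 the TPM order put IFNGR2 first again, at 86.2 ± 11.4, then IFNGR1 at 58.7 ± 20.6 and IL10RB at 47.3 ± 6.40 (SD, n = 3). IFNAR2 followed at 34.3 ± 4.82, IFNAR1 at 24.2 ± 8.97 and IFNLR1 at 8.06 ± 0.214 TPM (SD, n = 3). Here IFNGR1 overlapped both IFNGR2 and IL10RB, and IFNAR2 overlapped IFNAR1, so the order of those neighbours was not beyond the spread. TPM of RC48 replicate 2 was rebuilt from its counts. The balance of the subunits overlapped between groups for each receptor: IFNAR1 over IFNAR2 was 0.860 ± 0.108 in Control and 0.691 ± 0.179 in RC48. The ratio of IFNGR1 to IFNGR2 was 0.650 ± 0.0285 and 0.668 ± 0.156, and that of IFNLR1 to IL10RB was 0.153 ± 0.0119 and 0.173 ± 0.0298, in the same order.

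Of the 6 tested receptors, 0 passed an adjusted p of 0.05 in edgeR's quasi-likelihood test, against 2.21% of 13055 genes tested. At an unadjusted p under 0.05 there were 2 (IFNGR1 and IFNGR2), against 19.1% of all genes. DESeq2 called 1 (IFNGR2), against 5.7% of all genes, and edgeR with the GC correction called 1 (IFNGR1), against 7.22% of 13000 genes. Without RC48 replicate 1 edgeR called 2 (IFNGR1 and IFNGR2), against 6.82% of genes, and without RC48 replicate 2 it called 1 (IFNGR2), against 28.3%. With limma's voom and sample quality weights 3 were called (those 2 and IFNAR2), against 61.4% of all genes. The RC48 libraries all exceeded the highest Control library in 2 of the 6 (IFNAR2 and IFNGR2), against 17.4% of all genes, and all fell short of the lowest in 0 of the 6, against 14.1%. The median log2 fold change was 0.13 over the receptors and 0.016 over all genes. In bulk RNA, fewer cells holding a transcript and less of it per cell cannot be told apart.

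**Figure D2:**
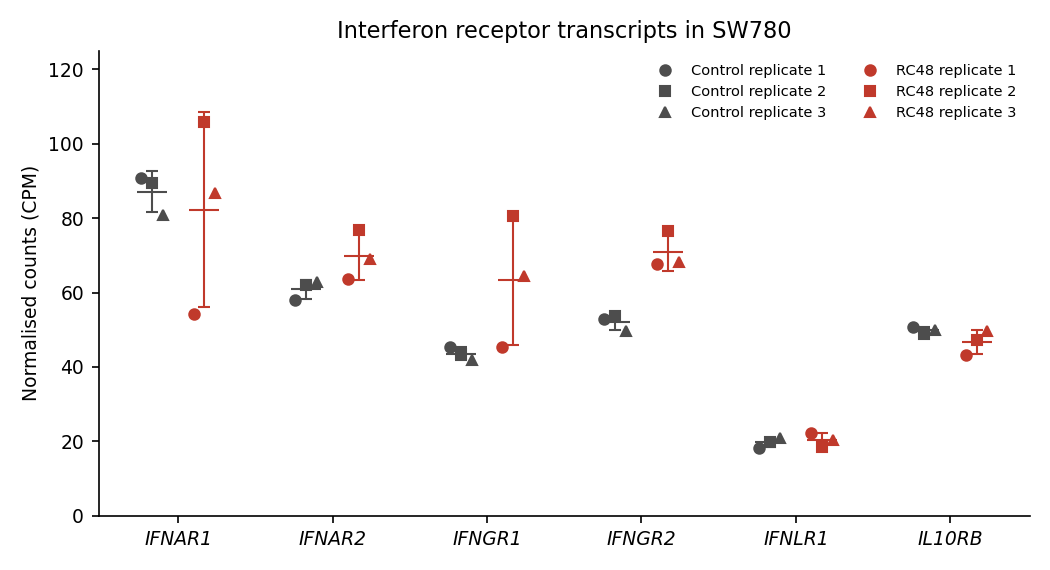
Normalised counts (CPM) of the 6 receptor genes in each library, with horizontal marks for group means and bars for SD (n = 3). IFNGR2 and IFNAR2 show no overlap between groups, and RC48 replicate 1 is the lowest RC48 library for IFNAR1 (54.1 CPM) and IFNGR1 (45.3 CPM).

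Neither subunit of the type I receptor passed the test. IFNAR1, which pairs with the kinase TYK2 (gene 3454, chr21:33324395-33359864), had 90.9, 89.6 and 80.8 CPM in Control replicates 1, 2 and 3. In RC48 it had 54.1, 105.9 and 86.7 CPM. The RC48 libraries lay on both sides of the Control range, with replicate 1 far below it and replicate 2 above it. The log2 fold change was -0.083 ± 0.23 (SE, 95% interval -0.61 to 0.45) with an adjusted p of 0.822 by edgeR's quasi-likelihood test. The sign turned with the GC correction (0.076) and without RC48 replicate 1 (0.14), and neither passed the test.

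IFNAR2, the subunit that binds type I interferon tightly and pairs with JAK1 (gene 3455, chr21:33229938-33265664), had 58.0, 61.9 and 62.8 CPM in Control. It had 63.7, 76.9 and 69.1 CPM in RC48. All RC48 libraries were above all Control libraries, though RC48 replicate 1 only just. The log2 fold change was 0.20 ± 0.12 (SE, 95% interval -0.090 to 0.49), with an adjusted p of 0.348 in edgeR's quasi-likelihood test. With the GC correction in the same test it was 0.21 (95% interval 0.015 to 0.41), with an adjusted p of 0.172. In TPM the groups overlapped, at 27.8 to 34.9 in Control and 30.3 to 39.7 in RC48. A readthrough gene that joins IFNAR2 to IL10RB overlaps both in RefSeq and had no row, so how its reads were assigned is not known.

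Both subunits of the type II receptor had positive fold changes with intervals above 0, short of the adjusted threshold. IFNGR1, the subunit that binds interferon gamma (gene 3459, chr6:137197484-137219385), had 45.4, 43.5 and 41.9 CPM in Control. In RC48 it had 45.3, 80.5 and 64.5 CPM. Replicates 2 and 3 stood above the whole Control range, while replicate 1 lay within it. The log2 fold change was 0.54 ± 0.21 (SE, 95% interval 0.065 to 1.02), with an unadjusted p of 0.0308 and an adjusted p of 0.231 in edgeR's quasi-likelihood test. IFNGR1 is GC-poor (40.2%), and with the GC correction in the same test its log2 fold change was 0.80 with an adjusted p of 0.00133. Without RC48 replicate 1 the log2 fold change was 0.73 with an adjusted p of 0.00194 in edgeR's quasi-likelihood test.

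IFNGR2, the subunit that brings JAK2 to the receptor (gene 3460, chr21:33402882-33437516), had 52.8, 53.7 and 49.6 CPM in Control. In RC48 it had 67.6, 76.6 and 68.2 CPM. The groups were well apart, also in TPM (64.5 to 66.2 against 76.5 to 98.8). The log2 fold change was 0.44 ± 0.12 (SE, 95% interval 0.17 to 0.72), with an unadjusted p of 0.0061 and an adjusted p of 0.133 by edgeR's quasi-likelihood test. DESeq2 gave an adjusted p of 0.0257, and edgeR without RC48 replicate 1 gave 0.0183. IFNGR2 is GC-rich (55.0%), and with the GC correction its log2 fold change was 0.26 with an adjusted p of 0.311 in edgeR. The GC correction thus moved the type II subunits in opposite directions, IFNGR1 up and IFNGR2 down. In RefSeq, 5031 bases of IFNGR2 overlap TMEM50B, and without strand-specific counting reads there cannot be told apart.

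The type III receptor showed no difference beyond the spread. IFNLR1, the subunit particular to type III interferon and typical of epithelium (gene 163702, chr1:24154168-24187289), had 18.3, 19.9 and 20.8 CPM in Control and 22.4, 18.6 and 20.3 CPM in RC48. The groups overlapped, with RC48 replicate 1 highest. The log2 fold change was 0.052 ± 0.14 (SE, 95% interval -0.27 to 0.37), with an adjusted p of 0.812 in edgeR's quasi-likelihood test, and its sign turned with the GC correction (-0.15). IL10RB, which type III interferons share with IL-10 and IL-22 (gene 3588, chr21:33266367-33310182), had 50.7, 49.0 and 49.9 CPM in Control and 43.1, 47.3 and 49.5 CPM in RC48. The groups overlapped through RC48 replicate 3. The log2 fold change was -0.096 ± 0.12 (SE, 95% interval -0.37 to 0.18), with an adjusted p of 0.604 in edgeR's quasi-likelihood test, and the GC correction turned its sign (0.22).

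**Figure D3:**
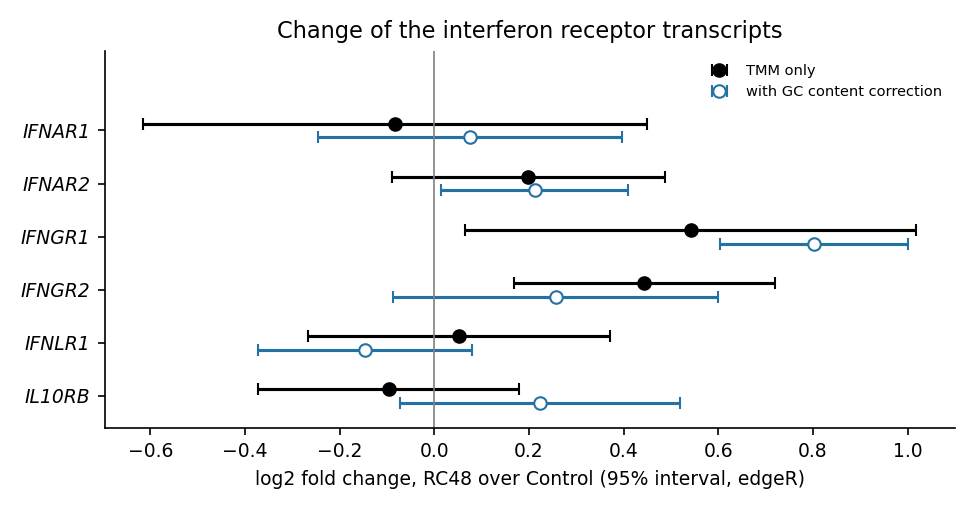
Log2 fold change of each receptor gene, RC48 over Control, with 95% intervals from edgeR's quasi-likelihood fit (n = 3 and 3), after TMM scaling (filled) and with the GC content correction (open). IFNGR1 moves from 0.54 to 0.80 and IFNGR2 from 0.44 to 0.26, and the signs of IFNAR1, IFNLR1 and IL10RB turn.

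**Figure D4:**
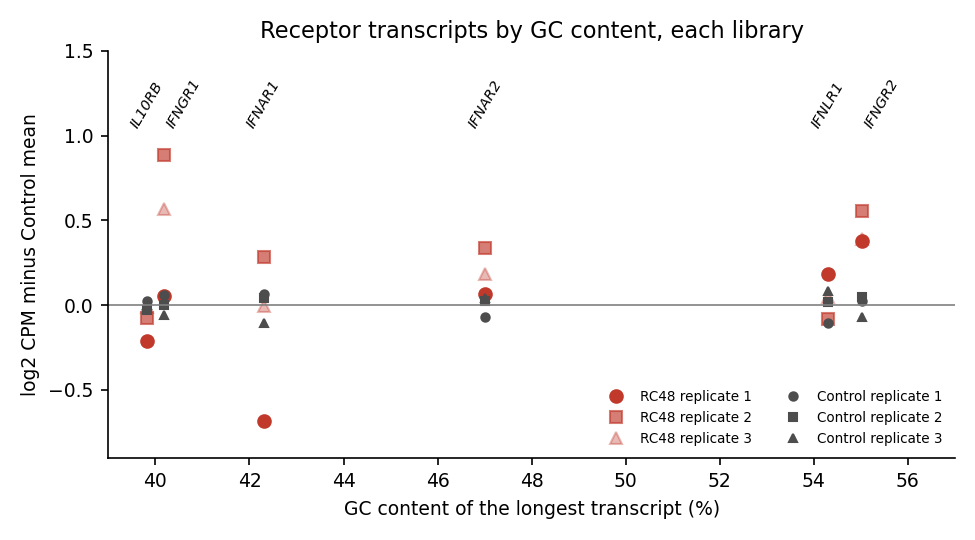
Log2 CPM of each receptor gene in each library minus the mean of the Control libraries, against the GC content of the longest transcript in percent. RC48 replicate 1 is lowest of the RC48 libraries for IL10RB (39.8%), IFNGR1 (40.2%), IFNAR1 (42.3%) and IFNAR2 (47.0%), and highest for IFNLR1 (54.3%). For IFNGR2 (55.0%) it is again the lowest, at 67.6 CPM.

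Other receptors of the same class II cytokine family did not pass in edgeR without the GC correction. Of 6 in the list, 5 were listed, 4 were tested and 0 were called by edgeR's quasi-likelihood test (1 at an unadjusted p under 0.05). Over all genes the shares were 2.21% called and 19.1% at an unadjusted p under 0.05. IL20RA, a subunit for IL-19, IL-20 and IL-24, had a log2 fold change of -0.33. IL20RB, its partner, had 0.43, IL22RA1, which pairs with IL10RB to receive IL-22, had 0.44, and F3 (tissue factor) had 0.29. Of these 4, 2 were higher in every RC48 library (IL20RB and F3) and 1 lower (IL20RA), against 17.4% and 14.1% of all genes. With the GC correction in edgeR F3 passed (0.41, adjusted p = 0.0136), against 7.22% of 13000 genes, while IL20RA, IL20RB and IL22RA1 did not. IL10RA, the partner of IL10RB for IL-10, reached at most 3 counts, and IL22RA2 had no row. The ligands that need IL10RB were as sparse as the interferons: IL10 had 0 counts in Control and 2 in RC48, and IL22 and IL26 had no row. Since listed genes all had counts in RC48, the direction for IL10 was fixed by the listing. Around the 4 receptor genes on chromosome 21, 9 neighbouring genes were tested. By edgeR 0 were called and 2 had an unadjusted p under 0.05, against 2.21% and 19.1% of all genes. The median log2 fold change of these neighbours was -0.34, against 0.016 over all genes.

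The genes whose levels over the 6 libraries were most like those of a receptor, among 9995 genes with at least 10 CPM on average, were found by Pearson's r on log2 CPM. For IFNAR1 they were FAM210B, UBE2B and MMADHC (r = 0.999, 0.998 and 0.997). For IFNAR2 they were SPOCK1, TRIM22 and UVRAG (r = 0.994, 0.992 and 0.984), of which TRIM22 is an interferon target. For IFNGR1 they included LYN and CCDC71L (r = 0.997 and 0.988). IFNGR2 was most like SERPINB8, EVA1A and FBXO32 (r = 0.992, 0.990 and 0.989). IFNLR1 was most like PLCG2, TRAIP and CCDC57 (r = 0.989, 0.972 and 0.967), and IL10RB like NRDC, FANCF and AFG3L2 (r = 0.994, 0.987 and 0.984). These are descriptions over 6 libraries, of which RC48 replicates 1 and 3 carry the GC trend. The genes were picked as the highest of 9995, so high r values come in part from that choice, and no link was tested.

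Downstream of the receptors, the interferon-activated STAT complex was partly higher after RC48. IRF9, the DNA-binding part of the complex, had 24.5 ± 0.413 CPM in Control and 94.7, 61.2 and 69.8 CPM in RC48. The groups were wide apart, with a log2 fold change of 1.62 ± 0.18 (SE, adjusted p = 0.00446 by edgeR). STAT2 had 85.6, 81.6 and 98.4 CPM in Control and 150.03, 134.0 and 146.0 CPM in RC48, again without overlap, and rose by 0.70 ± 0.12 on the log2 scale (SE, adjusted p = 0.0346 by edgeR). The kinases that sit on the receptors did not pass in edgeR: JAK1 had a log2 fold change of 0.21, JAK2 -0.029 and TYK2 0.64. The groups overlapped in JAK1 and JAK2. TYK2 was higher in every RC48 library, most of all in replicate 1 (160.8, 80.4 and 102.6 CPM in replicates 1, 2 and 3). With the GC correction in edgeR its log2 fold change was 0.28 (adjusted p = 0.159).

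Many target genes rose. Of 32 type I and III interferon targets tested, 18 rose and 0 fell by edgeR's quasi-likelihood test, against 1.98% and 0.23% of all genes. In 26 of the 32 every RC48 library was above every Control library, against 17.4% of all genes. The median log2 fold change of the 32 was 0.98, against 0.016 over all genes. The largest rises by the naming rule were in IFI27, a mitochondrial protein and common marker of interferon exposure (3.78 ± 1.08 CPM in Control, 32.8 ± 8.96 CPM in RC48, SD, n = 3) and IFITM1, which blocks virus entry (0.523 ± 0.229 and 3.96 ± 0.362 CPM). Next were RSAD2 (viperin), an antiviral enzyme (1.41 ± 0.256 and 9.47 ± 0.357 CPM), and IFI44L (2.80 ± 0.582 and 17.8 ± 4.60 CPM). MX1 and MX2, antiviral GTPases, followed with 26.8 ± 0.868 and 115.04 ± 4.31 CPM for MX1 and 10.1 ± 0.696 and 41.2 ± 1.80 CPM for MX2. Log2 fold changes of these 6 ran from 2.02 in MX2 to 3.12 in IFI27. Summed leukocyte markers were 1.56 to 1.71 CPM in Control and 2.40 to 4.49 CPM in RC48, with 7 of 12 markers listed. CD3E, of the T cell receptor complex, had 5, 4 and 7 counts in Control and 23, 11 and 17 in RC48, and CD14, a monocyte receptor, had 6, 8 and 4 in Control and 23, 14 and 12 in RC48. Both were higher in every RC48 library and neither was called. Other listed markers did not all follow. Summed counts in Control and RC48 were 26.3 and 30.2 for LYZ, 19 and 17 for LILRA4, 2 and 1 for NKG7, and 4 and 14 for CD79A. PTPRC, which nearly all leukocytes express, had 0 counts in each Control library and 1, 1 and 0 in RC48. That direction was fixed in advance, because listed genes all had counts in RC48. The part of leukocytes in the rise was not tested.

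The upstream stretches of 3 of the strongest targets are shown for comparison with the members above, because the ISRE letters that stood in 1 of 8 members stood in 19 of the 27 targets in the RefSeq table (70.4%, against 3.71% of all promoters). Capitals mark the ISRE match on either strand (GRCh38.p14).
IFI27, chr14:94110598-94110680, plus strand: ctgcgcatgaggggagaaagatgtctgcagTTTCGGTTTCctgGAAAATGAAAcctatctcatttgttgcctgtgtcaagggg
IFITM1, chr11:313970-314039, plus strand: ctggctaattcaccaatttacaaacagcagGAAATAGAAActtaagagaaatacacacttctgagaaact
RSAD2, chr2:6877602-6877671, plus strand: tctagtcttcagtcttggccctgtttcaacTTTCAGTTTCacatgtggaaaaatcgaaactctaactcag

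Of 18 type II targets listed, 16 were tested, 4 rose and 0 fell by edgeR's quasi-likelihood test, against 1.98% and 0.23% of all genes. In 7 of the 16 every RC48 library was above every Control library, against 17.4% of all genes. The median log2 fold change of the 16 was 0.49, against 0.016 over all genes. The difference between the target lists was not tested. CXCL10, a chemokine that draws T cells and answers to type I interferon and NF-kB as well, had 2, 1 and 1 counts in Control and 28, 50 and 37 counts in RC48. Its RC48 libraries stood far above Control, with a fitted log2 fold change of 4.71 ± 0.43 (SE, adjusted p = 0.00167 by edgeR) that rests on few Control counts. The other 3 serve antigen presentation and also answer to type I interferon: CD74 rose by 1.42, TAP1 by 0.81 and B2M by 0.62 on the log2 scale (adjusted p by edgeR 0.0475, 0.0166 and 0.0326). Of the 12 tested type II targets that did not pass, WARS1 (log2 fold change 0.32), PSMB8 (0.36) and PSMB9 (0.93) were higher in every RC48 library, and DESeq2 called PSMB9 (adjusted p = 0.0275). The groups overlapped in others, such as GBP1 (0.33), GBP5 (0.10), CIITA (-0.17) and IDO1 (0.79). HLA-DRA had 0 counts in 5 libraries and 1 in RC48 replicate 3, and CXCL9 had 0 counts in Control and 0, 1 and 1 in RC48. For HLA-DRA and CXCL9 the direction carries no information, because genes without RC48 counts had no row.

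Genes that lead to interferon production and genes that damp the receptors each held a few that rose. Over all genes tested, 1.98% rose and 0.23% fell by edgeR. Of 12 induction genes, 2 rose and 0 fell by edgeR: IRF7, the factor that drives IFNA genes and is itself an interferon target (3.22 ± 0.297 CPM in Control, 8.77 ± 1.66 in RC48, log2 fold change 1.44, adjusted p = 0.0117), and the kinase IKBKE (14.7 ± 0.400 and 36.9 ± 8.80 CPM, 1.32, adjusted p = 0.0128). The sensors CGAS (-0.49), RIGI (0.40), IFIH1 (0.76) and TLR3 (-0.16, all log2 fold changes) did not pass in this test. IFIH1 was higher in every RC48 library and passed in DESeq2 (adjusted p = 0.0274). With the GC correction in edgeR, IFIH1 (0.89, adjusted p = 0.0052) and RIGI (0.66, adjusted p = 0.0064) passed. CGAS and TLR3 passed neither in DESeq2 nor with the GC correction. Of 7 feedback genes, 2 rose and 0 fell by edgeR. USP18, which sits on IFNAR2 and damps type I signalling, went from 8.52 ± 0.414 to 16.2 ± 1.17 CPM (SD, n = 3), a log2 fold change of 0.93. SOCS3, an inhibitor of JAK kinases, went from 12.2 ± 1.44 to 22.7 ± 1.80 CPM, a log2 fold change of 0.89. SOCS1 (1.18), PTPN6 (0.56), PTPN2 (-0.12), PTPN11 (-0.46) and PIAS1 (-0.19) did not pass in edgeR. Of the 7, 4 were higher in every RC48 library (USP18, SOCS3, SOCS1 and PTPN6) and 1 lower (PTPN11), against 17.4% and 14.1% of all genes. PTPN6 passed in DESeq2 (adjusted p = 0.0461), but not with the GC correction in edgeR (0.25, adjusted p = 0.0774).

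**Figure D5:**
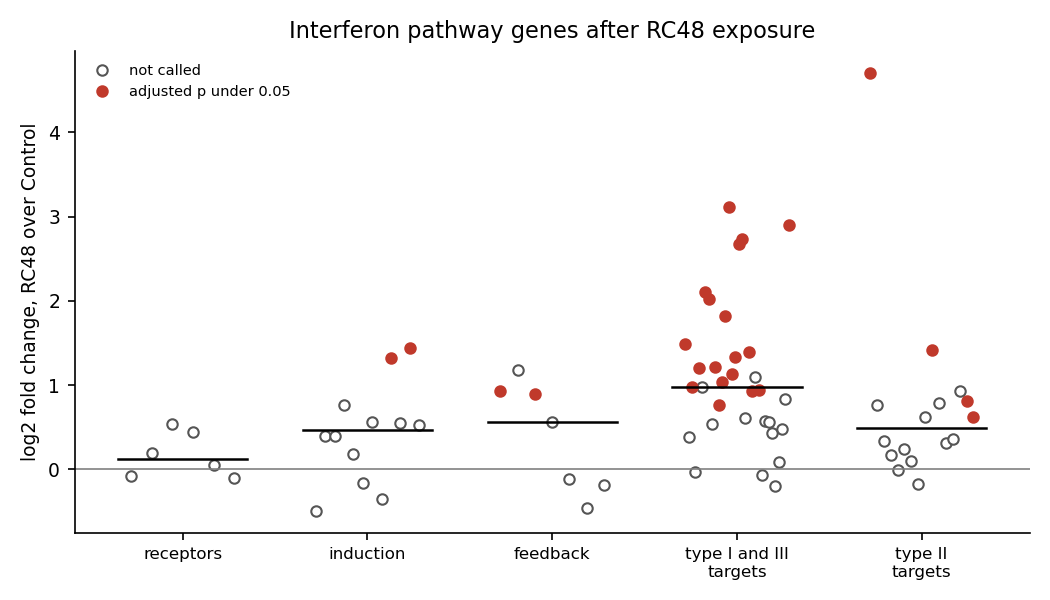
Log2 fold change (RC48 over Control, edgeR) of each tested gene in the receptor, induction, feedback and target lists, with filled points for an adjusted p under 0.05 and lines for list medians. The 6 receptors lie between -0.096 and 0.54 with 0 called, while 18 of 32 type I and III targets are called, all higher in RC48.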

How the data were processed

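Total RNA of SW780 was sequenced in 3 Control and 3 RC48 libraries. The authors filtered reads with SOAPnuke and mapped them with Bowtie2. The deposited values are RSEM's estimated counts per gene, not normalized by the authors, and TPM, which the authors normalized for gene length and library size. Per the labels the build is hg38 (the submitters' processing notes also list limma). Versions, annotation and strandedness are not given in the sources used here.

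Estimated counts were rounded, filtered with filterByExpr, scaled by TMM and tested with edgeR 4.0.16 (quasi-likelihood, R 4.3.3, limma 3.58.1) without covariates, with Benjamini-Hochberg adjustment over 13055 genes at 0.05. The study used limma on log2(TPM+1), run as an alternative, because counts were deposited. TPM of RC48 replicate 2 was rebuilt from its counts and the effective lengths that counts and TPM of the others imply (minimum 20 counts and 1 TPM); on replicate 3 this gave a median absolute log2 difference of 0.0367 over 11982 genes. GC content came from GENCODE transcripts for 16289 genes (99.4%), and coordinates and promoters from RefSeq (GRCh38.p14). The GC correction subtracted a loess trend (span 0.3) as an offset. The fit was tested on simulated data.

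Members and lists were chosen with earlier results of these data known. Named are all 9 members, up to 6 called genes of each list by absolute log2 fold change with at least 10 counts in every library of the higher group, all genes of lists of at most 7 genes, and the 3 genes most like each receptor. Some genes under this rule are not reported here. Genes named beyond this rule (leukocyte markers, and induction and type II genes that were not called) were chosen after their values were seen. There were 19 alternatives, among them DESeq2 1.42.0. Figures were drawn with matplotlib 3.10.9 in Python 3.11.15.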

Additional observations from a re-analysis of the deposited data

How the results depend on the processing

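Under 19 alternatives to the edgeR test (3 libraries a group, leave-one-out fits with 2 in the reduced group), IFNAR1, IFNLR1 and IL10RB were called in 0 of 19, IFNAR2 in 1 (voom with quality weights), IFNGR1 in 4 and IFNGR2 in 4. The number of called receptors, 0 in the reported test, was 1 with DESeq2, 3 with voom, 1 with the GC content correction and 1 with the replicate block with GC content correction. It ran from 0 to 2 when a library was left out, with 2 without RC48 replicate 1 and 1 without RC48 replicate 2. Called type I and III targets numbered 29 with voom, 8 with a minimum log2 fold change of 0.5, and 8 to 27 with a library left out (8 without any Control replicate or RC48 replicate 3). Called type II targets numbered 12 with voom, 1 with the minimum fold change, and 1 to 6 with a library left out. All called genes (288) became 744 with DESeq2, 2711 with limma on log2(TPM+1) in 5 libraries, 8018 with voom, 939 with the GC correction, 635 with the block and GC correction, 109 with the minimum fold change, and 68 to 3726 with a library left out (the highest without RC48 replicate 2).

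Signs turned for small fold changes. IFNAR1 had a log2 fold change of 0.076 with the GC correction, 0.061 with the block and GC correction, and -0.31 to 0.14 with a library left out. IFNLR1 had -0.0077 and -0.024 with limma on log2(TPM+1) in 5 and 6 libraries, -0.026 on log2(TPM+0.1), -0.014 with library sizes alone, -0.15 with the GC correction, -0.14 with the block and GC correction, and -0.024 to 0.11 with a library left out (-0.00093 without Control replicate 1). IL10RB had 0.22 with the GC correction and 0.21 with the block added. The cause was not tested.

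Whether replicate numbers pair the libraries is not known. Deviations of same-numbered libraries correlated at 0.0020, -0.132 and 0.0048 across 13055 genes. Those of differently numbered libraries ran from -0.112 to 0.131, and the RC48 libraries carry the GC trend, so this check cannot decide it. With the replicate block 0 receptors, 19 type I and III targets, 3 type II targets and 331 genes were called.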
